A study of Mus musculus with 20 samples.

Results

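The distal phalanges of digit 1 were set against those of digit 2 in mouse embryos at embryonic day 16 (E16) and embryonic day 17 (E17). Digit 1 is the most anterior digit and has fewer phalanges than digit 2, and in both digits the distal phalanx is the last bone and carries the nail. The comparison used 8 of the 20 libraries of mRNA sequencing, chosen by their labels as every distal phalanx of digit 1 (4 libraries) and every distal phalanx of digit 2 (4 libraries). Each digit gave 1 library from the forelimb and 1 from the hindlimb at each stage, so a digit 1 library and a digit 2 library alike in stage and limb form a matched pair. Tissue was pooled for each library, from 20 embryos at E16 and from 10 at E17. No embryo was treated, and the labels give no strain, genotype or allele. Whether libraries of 1 stage share embryos is not given by the labels, so the p-values rest on agreement across stages and limbs and not on separate litters.

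Digits form from the hand and foot plates of the limb bud, where genes at the 5′ end of the HoxD cluster are switched on in overlapping domains. In the mouse, Hoxd13 is known to reach the most anterior digit, while Hoxd10, Hoxd11 and Hoxd12 are known to stop short of it. The nail is built by the nail matrix, an epithelium that makes hard keratins and the keratin-associated proteins that crosslink them, under regulators that include Hoxc13, Foxn1 and Msx2.

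The start sites of genes that the results turn on are shown first, from 80 bases before to 20 bases after the RefSeq start (build GRCm38.p6). Capitals mark TATAAA, the core promoter motif called the TATA box. Krt34, Krtap3-2 and Krtap3-3 are shown for the nail genes that were lower in digit 1, and Hoxd10 and Hoxd12 for the HoxD genes that were lower there.
Krt34, chr11:100041535-100041634, minus strand: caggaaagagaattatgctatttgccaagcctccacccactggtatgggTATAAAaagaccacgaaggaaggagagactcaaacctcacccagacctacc
Krtap3-2, chr11:99556834-99556933, minus strand: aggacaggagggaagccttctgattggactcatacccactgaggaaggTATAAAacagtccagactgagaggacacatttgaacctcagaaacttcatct
Krtap3-3, chr11:99550844-99550943, minus strand: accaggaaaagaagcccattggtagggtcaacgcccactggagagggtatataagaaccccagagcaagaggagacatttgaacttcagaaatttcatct
Hoxd10, chr2:74691811-74691910, plus strand: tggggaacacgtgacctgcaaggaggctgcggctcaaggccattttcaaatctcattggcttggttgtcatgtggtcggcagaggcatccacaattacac
Hoxd12, chr2:74674933-74675032, plus strand: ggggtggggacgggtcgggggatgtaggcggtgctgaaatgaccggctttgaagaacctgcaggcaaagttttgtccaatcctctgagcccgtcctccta
The motif begins 31 bases before the start of Krt34 and 32 bases before that of Krtap3-2, and these letters do not occur in the window of Krtap3-3. In the full windows of 300 bases, CG pairs numbered 4, 0 and 2 for these 3 nail genes and 22 and 13 for Hoxd10 and Hoxd12. TATAAA was searched on both strands of the 300 bases, and 13 of 21 promoters of 18 genes of the nail and hard keratin list hold it, as do 13.6% of the 32851 mouse promoters in the table. These matches describe the letters only.

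The labels were checked against markers of the nail and digit tip. Krt84, a keratin of the nail, ranged from 413 to 6900 CPM (counts scaled to library size and composition) over the 8 distal libraries and from 0 to 8.55 CPM over the 8 proximal libraries. Msx1, a homeobox factor of digit tips, ranged from 135 to 673 CPM in distal and from 25.4 to 87.8 CPM in proximal libraries. Total counts of the distal libraries ran from 71233824 to 80694710 in digit 1 and from 72080405 to 111204552 in digit 2, and the 10 most abundant genes took 4.59% to 10.36% of them. Transcripts of both sexes were found in each library, with Xist at 66.8 to 125 CPM in digit 1 and 67.3 to 88.8 CPM in digit 2, and Y-linked transcripts at 70.8 to 95.1 CPM in digit 1 and 67.9 to 112 CPM in digit 2. The first principal component of the 8 libraries held 51.9% of the variance and separated the stages. The second held 22.3% and separated the digits, with the forelimb digit 1 libraries at 0.528 and 0.612, the hindlimb digit 1 libraries at 0.0134 and 0.01 and the digit 2 libraries from -0.347 to -0.228. The forelimb digit 1 libraries therefore stand farthest from digit 2.

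Of 14017 genes tested, 150 (1.07%) were higher and 223 (1.59%) were lower in digit 1 than in digit 2, 373 (2.66%) in all, with edgeR's quasi-likelihood test at an adjusted p under 0.05. At least 2-fold, 41 were higher and 86 lower. Among the genes lower in digit 1 were 3 HoxD genes and genes for nail keratins, keratin-associated proteins and cornified envelope proteins, and among those higher were some Iroquois and anterior-posterior patterning genes. Over all tested genes the median log2 fold change of digit 1 over digit 2 was 0.003. Leaving out the E16 forelimb library of digit 1 left 109 genes, and leaving out that of digit 2 left 127. The E16 forelimb library of digit 2 also stood apart in the summed level of the 13 mitochondrially encoded genes, at 13080 CPM against 7114 to 9403 CPM in the other 7, and the part of this in the results was not tested. Without the E16 hindlimb library of digit 1 the count was 192, without the E17 forelimb library of digit 1 it was 218, and without the E17 forelimb library of digit 2 it was 207. Fits of 4 libraries alone, with 1 residual degree of freedom, called 549 genes at E16, 38 at E17, 503 in the forelimb and 307 in the hindlimb. In what follows, the values of a digit are given in the order E16 forelimb, E16 hindlimb, E17 forelimb and E17 hindlimb. A fold change is on the log2 scale, digit 1 over digit 2, with its standard error, over n = 4 libraries each where both limbs are taken. Within a limb it compares 2 libraries of each digit, in a fit of 8 libraries with 3 residual degrees of freedom. Proximal effects and distal minus proximal differences come from a fit of 16 libraries. A single omission is the fit behind a value with 1 of its 8 or 16 libraries left out. Counts of list members alike in 4 of 4 pairs are given without the share of all genes. They are therefore not set against a background. Called list members over both limbs are to be read beside 1.07% higher and 1.59% lower among all tested genes.

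Hoxd12, Hoxd11 and Hoxd10, homeobox genes that pattern the digits, were several-fold lower in digit 1 in every matched pair, while Hoxd13, the last gene of the cluster, was not called. Hoxd12 stood at 1.3, 3.26, 3.23 and 6.92 CPM in digit 1, against 30.6, 26.5, 27 and 23.2 CPM in digit 2. Every digit 1 library lay below every digit 2 library, and the highest of digit 1 was the E17 hindlimb (log2 fold change -3.05 ± 0.35, adjusted p = 0.00638 in edgeR). Hoxd11 stood at 3.77, 2.06, 2.17 and 2.02 CPM in digit 1, against 29.1, 27.5, 17.5 and 15 CPM in digit 2. The digits did not overlap, and Hoxd11 had the smallest adjusted p of the cluster (-3.14 ± 0.16, adjusted p = 4.97e-05). Hoxd10 stood at 1.83, 1.47, 1.42 and 1.43 CPM in digit 1, against 17.9, 10.8, 6.66 and 6.48 CPM in digit 2. Its digit 1 libraries were nearly level, while its digit 2 libraries were highest at E16 in the forelimb (-2.65 ± 0.23, adjusted p = 0.00264). All 3 kept their calls in all 8 single omissions, with adjusted p of 0.000565 to 0.0223 for Hoxd12, 2.98e-05 to 0.00162 for Hoxd11 and 0.000402 to 0.0134 for Hoxd10. For comparison, 1.26% of all tested genes had digit 1 below digit 2 without overlap, and 1.01% had digit 1 above.

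Hoxd13 stood at 79.1, 170.4, 45.1 and 98.5 CPM in digit 1, against 155, 124, 74.5 and 69.9 CPM in digit 2. The forelimb pairs were lower in digit 1 and the hindlimb pairs higher, so the digits overlapped and the joint fold change was -0.18 ± 0.23 (adjusted p = 0.869). Within the forelimb Hoxd13 fell, at -0.85 ± 0.11 (adjusted p = 0.00152), and within the hindlimb it was at 0.48 ± 0.10 (adjusted p = 0.134). The digit effect of Hoxd13 differed between the limbs, by 1.33 ± 0.15 for hindlimb minus forelimb (adjusted p = 0.00293). Evx2, the homeobox gene beside Hoxd13 in the genome, stood at 12.5, 31.9, 6.16 and 13.9 CPM in digit 1, against 13.8, 10.3, 7.55 and 6 CPM in digit 2. It was highest in hindlimb digit 1 at each stage, rose there by 1.42 ± 0.17 (adjusted p = 0.0183), was at -0.21 ± 0.16 in the forelimb and differed between the limbs by 1.64 ± 0.23 (adjusted p = 0.0124). Genes farther along the cluster were low in both digits and not called: Hoxd9 at 1.83 to 2.91 CPM in digit 1, against 1.06 to 3.55 CPM in digit 2 and Hoxd8 at 3.04 to 5.33 CPM in digit 1, against 2.32 to 4.33 CPM in digit 2. In the HoxA cluster Hoxa10 was slightly higher in digit 1 (0.29 ± 0.07, adjusted p = 0.0489), a call that held in 0 of 8 single omissions (0.0659 to 0.207). Hoxa13, Hoxa11 and Hoxa9 were at 0.20, 0.05 and -0.04 and not called. Among the 12 measured genes of this list 1 rose and 3 fell, with a median of 0.01.

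**Figure D1:**
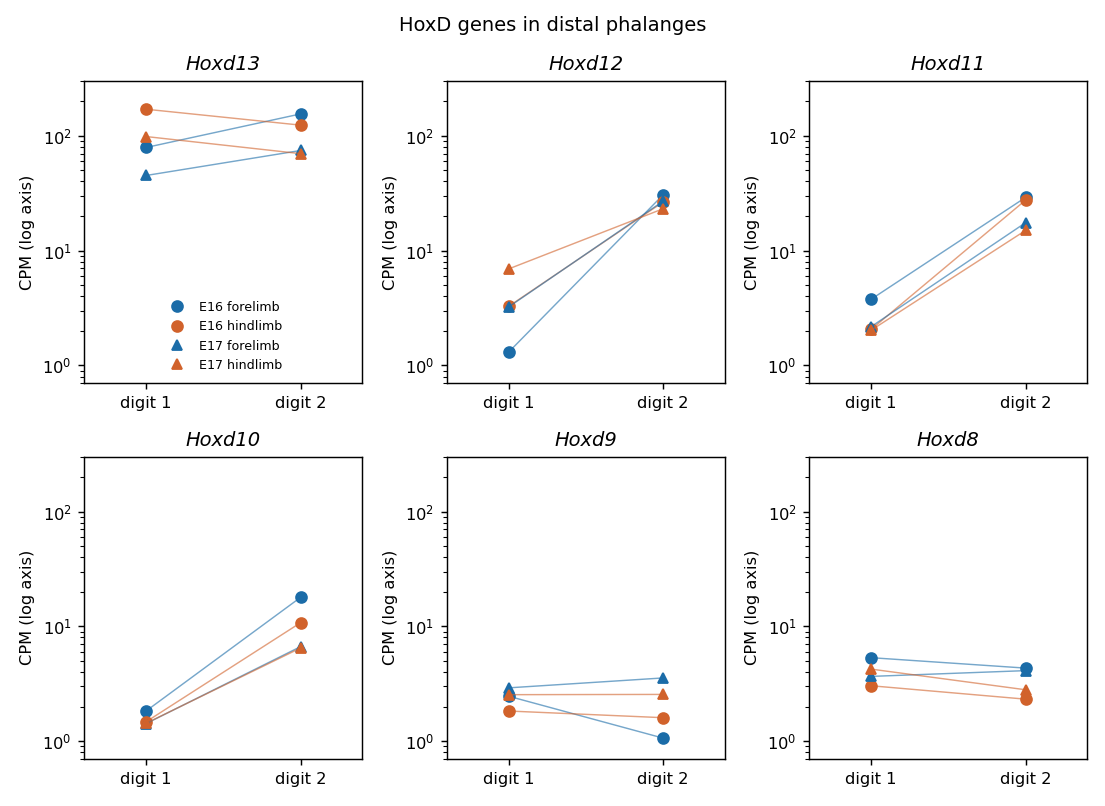
HoxD genes in the 8 distal phalanx libraries. The vertical axis is CPM on a log axis and lines join matched pairs of digit 1 (left) and digit 2 (right). Colour shows the limb and shape the stage. Hoxd12, Hoxd11 and Hoxd10 lie lower in digit 1 in all 4 pairs, and the lines of Hoxd13 cross by limb.

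Nail keratins were far lower in digit 1, most of all in the forelimb. In the list of nail and hard keratins, 19 of 25 members passed the filter on low counts. Of these, 7 fell and 0 rose in digit 1 (median -3.79), and 18 were lower in 4 of 4 matched pairs. Krt82, Krtap4-1, Krtap9-3, Krtap13-1, Krtap16-1 and Padi3 did not pass the filter. The summed level of all 25 members was 745, 3623, 2217 and 7439 CPM in digit 1, against 11190, 8222, 16670 and 13860 CPM in digit 2. In matched pairs digit 1 thus held 6.66% of the digit 2 level in the E16 forelimb, 44.1% in the E16 hindlimb, 13.3% in the E17 forelimb and 53.7% in the E17 hindlimb. The digit 1 sums did not reach the lowest digit 2 sum. In these bulk samples, fewer cells of a type and less RNA per cell cannot be told apart.

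Krt84 stood at 401, 1859, 1175 and 3698 CPM in digit 1, against 5076, 4206, 6347 and 6819 CPM in digit 2. Its digits did not overlap and the E16 forelimb of digit 1 was lowest (-2.02 ± 0.38, adjusted p = 0.0251). Krt36, another hard keratin, stood at 189, 1298, 689.6 and 2445 CPM in digit 1, against 3766, 3021, 4401 and 4359.6 CPM in digit 2. It had the same order of libraries within digit 1 and no overlap (-2.22 ± 0.48, adjusted p = 0.0427). Krt35, a hard keratin made early in hair and nail matrix, stood at 88.7, 221, 126 and 269 CPM in digit 1, against 414, 409.9, 518 and 484 CPM in digit 2. All 4 digit 1 libraries lay below all digit 2 libraries (-1.50 ± 0.22, adjusted p = 0.0105), and the call held in 8 of 8 single omissions. Those of Krt84 and Krt36 held in 5 and 3 of 8 (0.0125 to 0.0774 and 0.0222 to 0.131), and with the matched sets as a replicate block Krt36 was not called (adjusted p = 0.0778). Krt86 was at 0, 0.127, 0.109 and 1.35 CPM in digit 1, against 23.8, 1.27, 142 and 17.5 CPM in digit 2. It was nearly absent from digit 1, where its highest value, in the E17 hindlimb, lay just above the lowest of digit 2 (-5.99 ± 1.05, adjusted p = 0.0191). Krt34 was at 3.59, 1.21, 15.3 and 12.3 CPM in digit 1, against 41.6, 3.91, 181 and 35 CPM in digit 2. The E16 hindlimb value of digit 2 lay among those of digit 1, so the digits overlapped (-2.59 ± 0.40, adjusted p = 0.0133).

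Krtap3-2 and Krtap3-3 code for keratin-associated proteins, which bind keratin filaments together. Krtap3-2 stood at 0.882, 1.68, 5.56 and 9.33 CPM in digit 1, against 27.9, 8.88, 127 and 46.1 CPM in digit 2 (-3.50 ± 0.42, adjusted p = 0.0064). It was lower in digit 1 in every pair and its call held in 8 of 8 single omissions. Krtap3-3 stood at 1.62, 5.92, 10.3 and 69.5 CPM in digit 1, against 118, 32.9, 405 and 220.3 CPM in digit 2 (-3.79 ± 0.75, adjusted p = 0.0297). Krtap6-5, with the lowest fold change of the named genes, had no counts in 3 of 4 digit 1 libraries and 0.129 CPM in the E17 hindlimb, against 3.37, 1.07, 85.3 and 5.31 CPM in digit 2. It passed the filter on low counts only through its digit 2 libraries, so its low value in digit 1 is tied to the filter. Without any 1 of the digit 2 libraries it was not tested. Over the single omissions Krt86 was called in 6 of 8 (0.000641 to 0.0739), Krt34 in 7 (0.000847 to 0.0662) and Krtap3-3 in 4 (0.00408 to 0.126), each with its highest adjusted p without the E16 forelimb library of digit 1. These families hold close copies, so counts of single members are uncertain.

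The limbs differed in this effect. Within the forelimb 17 of the 19 nail and hard keratin genes fell (median -6.31), where 1.9% of all genes were lower. Within the hindlimb 4 of 19 fell (median -1.54), where 0.164% of all genes were lower. In fits of the 4 libraries of a limb alone, 18 of 19 fell in the forelimb and 17 of 19 in the hindlimb, where 1.97% and 1.5% of all genes were lower, so the count for the hindlimb depends on the fit. The difference itself, hindlimb minus forelimb, in the fit of 8 libraries, was called positive for 16 of 19 (median 5.45), against 0.357% of all genes. Krt85, a keratin of the nail matrix, stood at 4.11 and 27.9 CPM in forelimb digit 1, against 668 and 1172 CPM in forelimb digit 2. In the hindlimb it stood at 123 and 427 CPM in hindlimb digit 1, against 239.8 and 714 CPM in hindlimb digit 2. The forelimb fold change was -6.31 ± 0.39 (adjusted p = 1.35e-05), the hindlimb one -0.85 ± 0.31 (adjusted p = 0.451), and they differed by 5.45 ± 0.47 (adjusted p = 0.00111). Krt87 stood at 1.24 and 3.85 CPM in forelimb digit 1, against 242 and 571 CPM in forelimb digit 2, and at 10 and 90.3 CPM in hindlimb digit 1, against 36.3 and 176 CPM in hindlimb digit 2. Its limbs differed by 6.22 ± 0.52 (adjusted p = 0.00111). Krt31 stood at 0.658 and 4.96 CPM in forelimb digit 1, against 221 and 568 CPM in forelimb digit 2, and at 8.42 and 114 CPM in hindlimb digit 1, against 40.3 and 208 CPM in hindlimb digit 2 (difference 6.24 ± 0.62, adjusted p = 0.00139). Krt86 and Krtap3-2 differed by 7.27 ± 0.58 and 2.36 ± 0.20 (adjusted p = 0.00111 each). Krt86 was at 0 and 0.109 CPM in forelimb digit 1, so the size of its difference rests on near-zero counts. Selenbp1 (-0.43 ± 0.10 over both limbs) and Tchh (-0.53 ± 0.34) were called in neither limb.

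**Figure D2:**
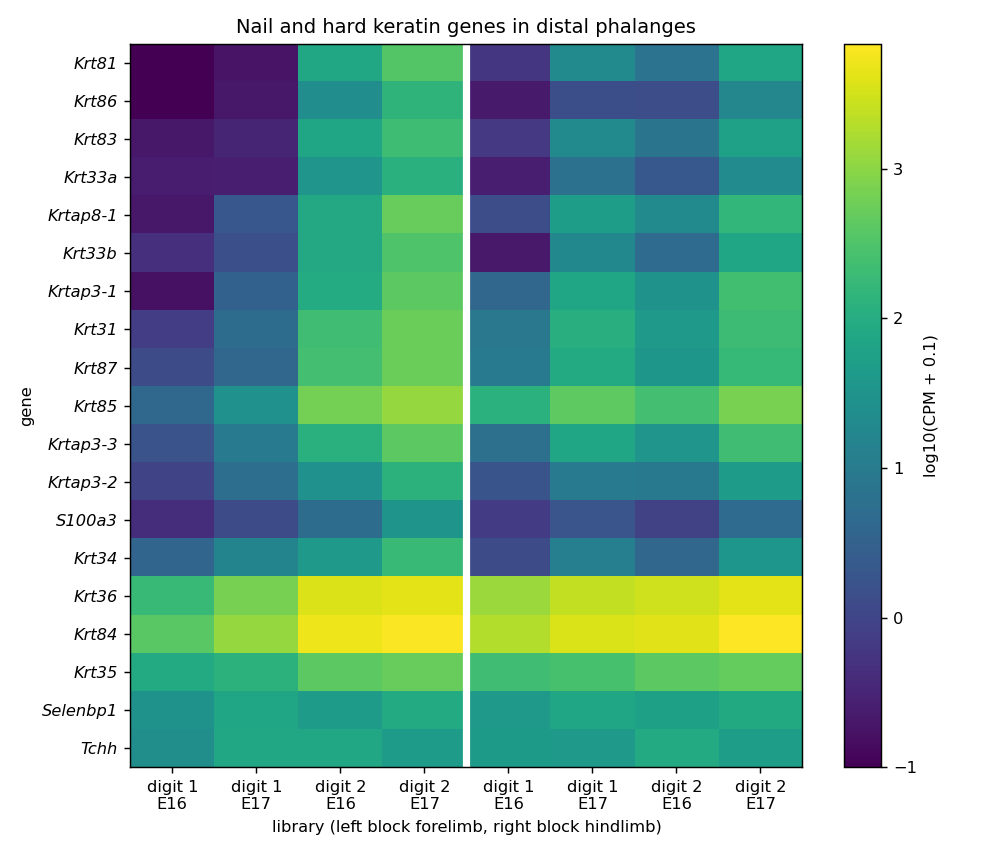
Levels of the 19 measured nail and hard keratin genes, as log10 of CPM plus 0.1. Columns are libraries, forelimb in the left block and hindlimb in the right, with digit 1 left of digit 2 in each. Rows are ordered by the forelimb fold change, and the forelimb digit 1 columns are the darkest for the genes at the top.

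Over all genes, the digit effect differed between the limbs for 59 genes (0.421%), 50 with a higher and 9 (0.0642%) with a lower value in the hindlimb. In the same fit of 8 libraries 458 genes (3.27%) differed between digits within the forelimb, 191 higher and 267 lower, and 28 (0.2%) within the hindlimb, 5 higher (0.0357%) and 23 lower. The fits of the 4 libraries of a limb alone called 503 and 307, so the hindlimb count, and with it the contrast of the limbs in counts, depends on the fit. The forelimb count was 151 without the E16 forelimb library of digit 2, 250 without that of digit 1 and 295 without the E17 forelimb library of digit 2. The hindlimb count ran from 4 without the E16 hindlimb library of digit 2 to 121 without the E17 hindlimb library of digit 1. The count of limb differences was 30, 36 and 37 without the E16 hindlimb, the E16 forelimb and the E17 forelimb library of digit 2.

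**Figure D3:**
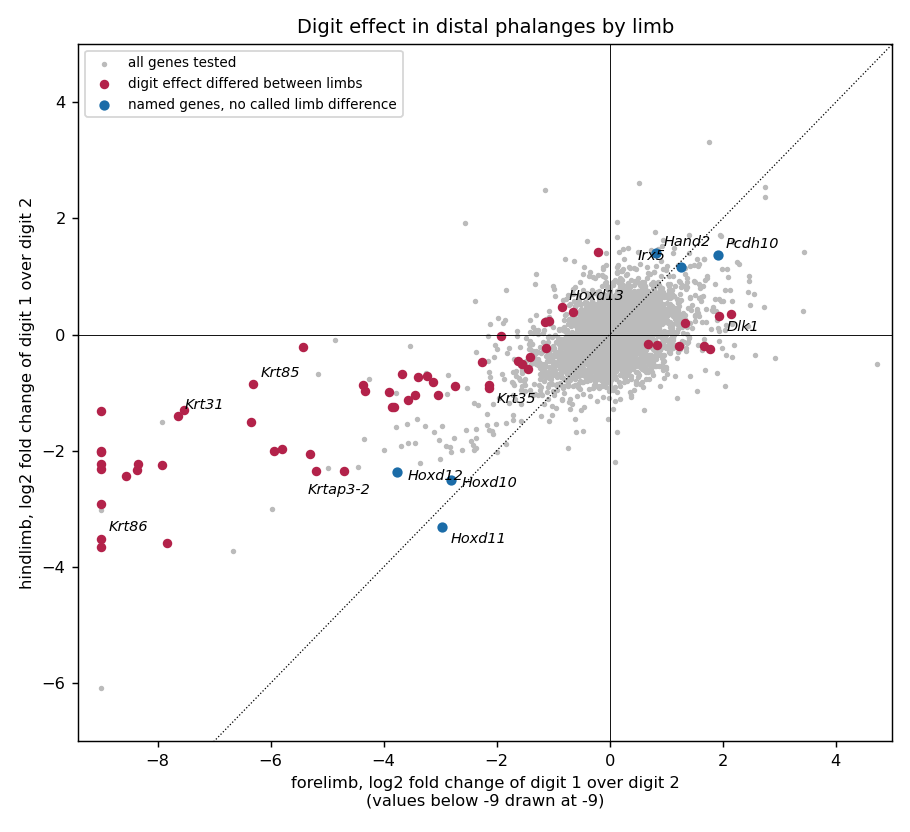
Log2 fold change of digit 1 over digit 2 in the forelimb (horizontal) and the hindlimb (vertical) for each tested gene. Red points are the 59 genes whose digit effect differed between limbs, blue points are named genes with no called difference, and the dotted line marks equal effects. Nail keratins lie far to the left of the line, while Hoxd10 and Hoxd11 lie near it. Hoxd12 lies to the left of it, at -3.76 in the forelimb and -2.37 in the hindlimb.

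Several regulators of the digit tip and nail were also lower in digit 1. Of 21 measured members of the distal digit tip and nail patterning list, 9 fell and 2 rose (median -0.29), and 12 were lower in 4 of 4 pairs. Hoxc13, which drives hair and nail keratin genes, stood at 72.2, 139.6, 53.9 and 112 CPM in digit 1, against 196, 205, 146 and 172 CPM in digit 2. The digits did not overlap and the forelimb of digit 1 was lowest at each stage (-1.01 ± 0.15, adjusted p = 0.0112). It fell in the forelimb (-1.44 ± 0.10, adjusted p = 2.66e-05), was at -0.59 ± 0.10 in the hindlimb, and differed between the limbs by 0.85 ± 0.14 (adjusted p = 0.0274). It was the only call among 5 measured HoxC genes (median -0.3). Foxn1, a transcription factor of nail and hair keratinocytes, stood at 26.6, 28.7, 25.4 and 35.4 CPM in digit 1, against 52.4, 44.2, 66.1 and 53.7 CPM in digit 2. Each digit 1 library was below each digit 2 library (-0.89 ± 0.12, adjusted p = 0.00972). Bambi, a decoy receptor for BMP signals, stood at 102, 124, 103 and 119 CPM in digit 1, against 179, 204, 154 and 177 CPM in digit 2. Its values were level within each digit and did not overlap (-0.67 ± 0.07, adjusted p = 0.00316).

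Msx2 and Msx1, homeobox genes of the digit tip under BMP control, were lower in every pair. Msx2 stood at 122, 175, 78.6 and 117 CPM in digit 1, against 194, 239, 129 and 163 CPM in digit 2 (-0.57 ± 0.07, adjusted p = 0.00694), and Msx1 at 290.1, 486, 132 and 267 CPM in digit 1, against 402, 659, 273 and 345 CPM in digit 2 (-0.58 ± 0.11, adjusted p = 0.0218). Their levels were lower at E17 in both digits, and the digits overlapped across stages. Rspo4, a Wnt agonist whose loss in humans leaves the nails missing, stood at 4.13, 6.77, 3.98 and 4.05 CPM in digit 1, against 11.7, 10.3, 7.53 and 7.01 CPM in digit 2 (-0.95 ± 0.17, adjusted p = 0.0224). Its 4 digit 1 libraries lay below all 4 of digit 2. Sp8, a factor of the limb ectoderm, was at -0.46 ± 0.07 and the only called gene of 15 in the dorsoventral and limb ectoderm list (median 0.04). Bmp4, a BMP ligand, was at -0.58 ± 0.12, Dlx5 and Dlx6, neighbouring homeobox genes, at -0.34 ± 0.07 and -0.63 ± 0.10, and all 3 passed the test. Wnt10b, a Wnt ligand, rose: it stood at 31.3, 13.2, 56.6 and 24 CPM in digit 1, against 18.2, 6.83, 32.8 and 15.9 CPM in digit 2 (0.78 ± 0.09, adjusted p = 0.0064). It was higher in digit 1 in every pair, although forelimb and hindlimb levels overlapped across digits. Lgr6, a receptor for R-spondins, also rose (0.72 ± 0.14, adjusted p = 0.0268), while Axin2, a target of Wnt signals, was at 0.40 ± 0.09 and not called (adjusted p = 0.0614). Foxn1, Bambi, Msx2 and Wnt10b kept their calls in 8 of 8 single omissions. Without the E16 forelimb library of digit 1 the adjusted p was 0.051 for Hoxc13, 0.0727 for Msx1 and 0.051 for Sp8. Without that of digit 2, Msx1 was at 0.0603. Rspo4, Dlx6 and Lgr6 were called in 5, 7 and 3 of 8 omissions (0.0344 to 0.0955, 0.0298 to 0.0548 and 0.00548 to 0.128). Bmp4 was called in 2 and Dlx5 in 1 of 8 omissions (0.0217 to 0.113 and 0.0488 to 0.104), and with the replicate block Bmp4 was not called (adjusted p = 0.0547).

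Lists of limb signalling pathways held few other calls. In the list of BMP ligands, antagonists and targets 2 of 17 fell (median -0.18), namely Bambi and Bmp4, and 8 were lower in 4 of 4 pairs. In the canonical Wnt list 1 of 17 fell, the inhibitor Dkk1 (-0.69 ± 0.15, adjusted p = 0.0455, called in 1 of 8 omissions, 0.00852 to 0.165, and at 0.0519 with the replicate block), with a median of 0.03. The FGF response list held no call among 13 (median 0.02). In the Hedgehog list 1 of 9 rose, Foxf2, a forkhead factor of limb mesenchyme (0.81 ± 0.16, adjusted p = 0.0281, called in 3 of 8 omissions, 0.0219 to 0.109). Ptch1, the Hedgehog receptor and a target of the pathway, stood at 162, 294, 54.3 and 138 CPM in digit 1, against 301, 330.1, 137 and 161 CPM in digit 2. It was not called over both limbs (-0.65 ± 0.17, adjusted p = 0.0907) but fell in the forelimb (-1.10 ± 0.13, adjusted p = 0.00128), and the difference between limbs was not called (adjusted p = 0.108). In the retinoic acid list Aldh1a2, which makes retinoic acid, fell (-0.94 ± 0.18, adjusted p = 0.0268) and Crabp1, which binds it in the cell, rose (0.50 ± 0.09, adjusted p = 0.0252), out of 11 (median 0). These calls held in 3 and 3 of 8 single omissions (0.0284 to 0.073 and 0.022 to 0.0999).

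The epidermis itself was at like levels in the digits, apart from some late products. The summed level of 22 basal and suprabasal epidermal genes in digit 1 was 91.3%, 91.5%, 121% and 106% of that in digit 2 in matched pairs, and 1 member rose and 1 fell (median -0.08). Krt17, a keratin of the nail bed and of stressed epidermis, fell: it stood at 425, 672, 575 and 842 CPM in digit 1, against 814, 1002, 936 and 1198 CPM in digit 2 (-0.68 ± 0.08, adjusted p = 0.00638). It was lower in digit 1 in all 4 pairs, and the E17 hindlimb of digit 1 passed the lowest digit 2 library. Krt15, a basal keratin, rose (0.41 ± 0.08, adjusted p = 0.0314, called in 1 of 8 omissions, 0.0172 to 0.109). Krt8, a simple epithelial keratin found in Merkel cells, stood at 46.8, 64.7, 84.2 and 84.8 CPM in digit 1, against 20.6, 35.8, 40.6 and 37.2 CPM in digit 2. The digits did not overlap (1.06 ± 0.13, adjusted p = 0.00701). Its partner Krt18 was at 13.4 to 20.1 CPM in digit 1, against 8.91 to 11.5 CPM in digit 2, also without overlap (0.81 ± 0.13, adjusted p = 0.0148). These were 2 of the 4 measured Merkel cell genes (median 0.56). The other two, Sox2 (-0.26 ± 0.38) and Piezo2 (0.32 ± 0.17), were not called.

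In the cornified envelope list 2 of 18 fell (median -0.29). Cdsn, the adhesion protein corneodesmosin, stood at 36.1, 23.6, 154 and 122 CPM in digit 1, against 118, 61.9, 288 and 199 CPM in digit 2 (-1.18 ± 0.15, adjusted p = 0.00794). It was lower in every pair and higher at E17 in both digits. Sprr2a1, a small proline-rich protein of the envelope, stood at 1.34, 5.4, 7.28 and 32.1 CPM in digit 1, against 25.8, 15.9, 80.2 and 64 CPM in digit 2 (-2.49 ± 0.47, adjusted p = 0.0254). Sprr2b (-3.65 ± 0.75) and Sprr2d (-3.27 ± 0.56) were among the 10 lowest fold changes, as were Spink6, a protease inhibitor of skin (-4.31 ± 0.73), and Psors1c2 (-3.63 ± 0.53). Over whole families, 6 of 10 Sprr genes fell (median -2.37) and 8 of 18 Lce genes fell (median -2.21), with 17 Lce genes lower in 4 of 4 pairs. The 8 Lce calls each held in only 2 to 5 of 8 single omissions. With the replicate block Lce1i and Lce1k were not called (adjusted p = 0.0592 and 0.0684). Members of these families are near copies and their counts may be shared. Sprr2a1 and Sprr2b also differed between limbs, by 2.60 ± 0.29 and 3.94 ± 0.63 (adjusted p = 0.00293 and 0.0255). Flg, filaggrin of the granular layer, differed by 1.31 ± 0.20 (adjusted p = 0.0227) and fell in the forelimb (-1.07 ± 0.14). Over the single omissions Sprr2a1 was called in 3 of 8 (0.00547 to 0.0963), Sprr2b in 4 (0.00153 to 0.156), Sprr2d in 6 (0.00106 to 0.055) and Spink6 in 7 (0.00108 to 0.0518), while Cdsn and Psors1c2 kept their calls in 8 of 8 omissions.

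**Figure D4:**
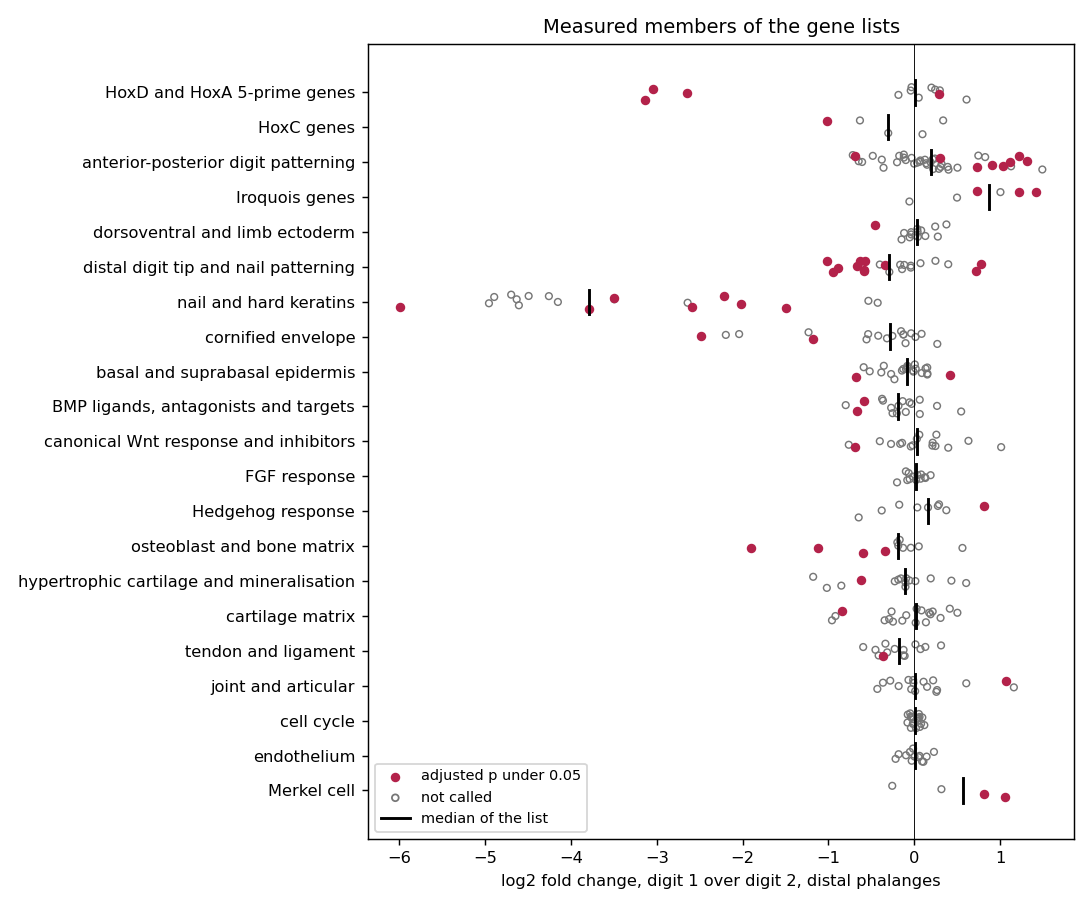
Log2 fold change of digit 1 over digit 2 for each measured member of 21 gene lists. Filled points passed the test, open points did not, and the bar is the median of the list. The nail and hard keratin list lies lowest, and the Iroquois genes lie highest.

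Several anterior-posterior patterning genes were higher in digit 1. Of 41 measured members 7 rose and 1 fell (median 0.19), where 1.07% of all genes were higher and 1.59% lower. In 4 of 4 pairs 13 were higher. Hand2, known as a regulator of the posterior limb bud, stood at 10.9, 12.1, 11.7 and 16.4 CPM in digit 1, against 6.12, 5.04, 6.66 and 5.66 CPM in digit 2. All 4 digit 1 libraries lay above all of digit 2 (1.11 ± 0.15, adjusted p = 0.00972). Tbx3, a T-box factor of the limb margins, stood at 100.1, 62.8, 61.7 and 36.1 CPM in digit 1, against 37.5, 44.8, 30.7 and 21.2 CPM in digit 2. It was higher in digit 1 in every pair and highest in the forelimb at each stage (0.91 ± 0.14, adjusted p = 0.0142). Osr1, a zinc-finger factor of limb mesenchyme, stood at 19.3, 25.1, 28.3 and 27.1 CPM in digit 1, against 7.44, 7.31, 19.4 and 19.7 CPM in digit 2 (1.04 ± 0.20, adjusted p = 0.0284). Its difference was widest at E16, and the digits overlapped by 1 digit 1 library. Mab21l2 was low in both digits, at 1.03 to 4.97 CPM in digit 1, against 0.435 to 1.68 CPM in digit 2 (1.32 ± 0.23, adjusted p = 0.0205). Dach1 was at 0.30 ± 0.07 (adjusted p = 0.047), and Dkk1 was the member that fell. Hand2 kept its call in 8 of 8 single omissions, and Tbx3 lost it without the E16 forelimb library of digit 1 (adjusted p = 0.0538). Osr1 and Mab21l2 were called in 4 and 4 of 8 (0.0131 to 0.135 and 0.0423 to 0.0693), and Dach1 in 0 (0.0583 to 0.194).

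Iroquois genes, homeobox factors of which Irx3 and Irx5 are needed together in the mouse for anterior limb skeleton, included 3 that were higher in digit 1. Of the 6 measured, Irx5, Irx3 and Irx6 rose (median 0.87), and their summed level was 101, 113, 135 and 118 CPM in digit 1, against 64.3, 67.6, 88.2 and 75.9 CPM in digit 2. The sums did not overlap. Irx5 stood at 27, 30, 30.3 and 22.6 CPM in digit 1, against 11.9, 11.2, 11.9 and 12.2 CPM in digit 2. It was level within each digit and did not overlap (1.22 ± 0.11, adjusted p = 0.00264). Irx3, its neighbour in the genome, stood at 46.3, 32.1, 62.9 and 34.6 CPM in digit 1, against 21.5, 25, 30.2 and 25.9 CPM in digit 2, with no overlap and the highest values in forelimb digit 1 (0.74 ± 0.14, adjusted p = 0.0285). Irx6 was at 3.05 to 6.26 CPM in digit 1, against 0.512 to 3.47 CPM in digit 2 (1.42 ± 0.31, adjusted p = 0.0425). Irx1 was at 1.00 ± 0.25, Irx4 at 0.50 ± 0.25 and Irx2 at -0.06 ± 0.18, and none of these passed the test. Irx5 was called in 8 of 8 single omissions, Irx3 and Irx6 in 2 and 2 (0.0135 to 0.109 and 0.0284 to 0.136), and Irx6 was not called with the replicate block (adjusted p = 0.0547).

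Within the forelimb Dlk1, Pax9 and Tbx18 were higher in digit 1, of which Pax9 and Tbx18 were chosen after their values were seen. Dlk1, an imprinted membrane protein of fetal tissues, stood at 69.3 and 297 CPM in forelimb digit 1, against 18.3 and 76.5 CPM in forelimb digit 2, and at 23.2 and 119.8 CPM in hindlimb digit 1, against 23.1 and 78.8 CPM in hindlimb digit 2. Its levels were highest in forelimb digit 1 at each stage. It rose in the forelimb (1.94 ± 0.14, adjusted p = 2.77e-05), was at 0.31 ± 0.13 in the hindlimb, and differed by -1.63 ± 0.19 (adjusted p = 0.00326). Pax9, a paired-box factor of the anterior digit, stood at 40.9 and 20.5 CPM in forelimb digit 1, against 4.68 and 6.66 CPM in forelimb digit 2, and at 5.82 and 7.37 CPM in hindlimb digit 1, against 3.25 and 6.12 CPM in hindlimb digit 2. It rose in the forelimb (2.48 ± 0.37, adjusted p = 0.00472), and its limb difference of -1.98 ± 0.50 was not called (adjusted p = 0.282). Tbx18 rose in the forelimb (0.98 ± 0.15) with no called limb difference (adjusted p = 0.179). Lypd1, Penk, the precursor of enkephalins, and Socs2, an inhibitor of cytokine signals, had limb differences of -1.80 ± 0.23, -1.02 ± 0.16 and -1.42 ± 0.22. These held in 7, 2 and 2 of 8 single omissions (adjusted p 0.0105 to 0.0575, 0.00956 to 0.174 and 0.0262 to 0.177). Sall1, a zinc-finger gene whose mutation in humans alters the thumb, had a difference in the other direction (1.03 ± 0.18, adjusted p = 0.0383) and fell in the forelimb (-0.64 ± 0.13). Tbx5, the forelimb T-box factor, stood at 184 and 75.6 CPM in forelimb digit 1, against 48 and 37.9 CPM in forelimb digit 2 and was not called there (1.58 ± 0.41, adjusted p = 0.0714). No member of the limb identity list of 6 was called (median 0.04).

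Among the 10 highest fold changes were genes of several kinds. Tub, a phosphoinositide-binding protein of neurons and cilia, stood at 18.5, 8.21, 12.2 and 8.12 CPM in digit 1, against 3.17, 1.76, 4.88 and 3.37 CPM in digit 2. The digits did not overlap (1.83 ± 0.24, adjusted p = 0.00772). Pcdh10, a protocadherin, stood at 61.1, 45.6, 45.9 and 35.4 CPM in digit 1, against 14.1, 13.4, 14.1 and 17.6 CPM in digit 2, again without overlap (1.64 ± 0.16, adjusted p = 0.00264). Dio3, the deiodinase that inactivates thyroid hormone, stood at 5.33, 7.71, 8.09 and 11.7 CPM in digit 1, against 1.04, 2.89, 1.85 and 5.45 CPM in digit 2. It was higher in digit 1 in each pair, with an overlap of the E16 forelimb of digit 1 and the E17 hindlimb of digit 2 (1.73 ± 0.22, adjusted p = 0.00772). Prokr2, a prokineticin receptor, was highest in forelimb digit 1 (8.8 to 71.1 CPM in digit 1, against 4.77 to 9.98 CPM in digit 2, log2 fold change 1.70 ± 0.34, adjusted p = 0.029). Shisal1 (1.56 ± 0.24), Nrn1, which codes for neuritin (1.34 ± 0.26), and Foxd1, a forkhead factor (1.22 ± 0.21), did not overlap. C1qtnf2, a secreted C1q-like protein, was at 1.42 ± 0.26. Tub, Pcdh10 and Dio3 kept their calls in 8 of 8 single omissions, Foxd1 and Shisal1 in 7, and Prokr2, Nrn1 and C1qtnf2 in 4 (0.0207 to 0.0994, 0.0207 to 0.121 and 0.0243 to 0.0848). Prokr2 was not called with the replicate block (adjusted p = 0.0506).

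Mast cell genes made up the rest of the 10. Cpa3, a mast cell carboxypeptidase, stood at 21.5, 9.58, 81.1 and 42.9 CPM in digit 1, against 8.65, 6.01, 18.3 and 17.6 CPM in digit 2 (1.36 ± 0.19, adjusted p = 0.00995). It was higher in digit 1 in every pair and higher at E17 in both digits, so the digits overlapped. Tpsb2, a tryptase, stood at 7.83, 3.93, 45 and 25.3 CPM in digit 1, against 2.02, 2.65, 12.9 and 11.5 CPM in digit 2 (1.37 ± 0.20, adjusted p = 0.011). Both calls held in 8 of 8 single omissions.

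Several genes of bone formation were lower in digit 1, while cartilage was near level. Of 11 measured osteoblast and bone matrix genes 4 fell and 0 rose (median -0.19), where 1.59% of all genes were lower. In 4 of 4 pairs 7 were lower. Ifitm5, a membrane protein of mineralising osteoblasts, stood at 0.961, 0.927, 1.75 and 0.979 CPM in digit 1, against 5.04, 2.92, 6.75 and 3.05 CPM in digit 2. The digits did not overlap (-1.90 ± 0.24, adjusted p = 0.00701). Smpd3, a sphingomyelinase needed for bone mineralisation in the mouse, stood at 25.5, 31.1, 137 and 103 CPM in digit 1, against 106, 79.6, 185 and 168 CPM in digit 2 (-1.12 ± 0.21, adjusted p = 0.0259). It was lower in each pair, and the digits overlapped across stages. Sp7, the osteoblast transcription factor, stood at 35.9, 51.6, 16.7 and 27.3 CPM in digit 1, against 55.6, 72.5, 34.1 and 31.5 CPM in digit 2 (-0.59 ± 0.12, adjusted p = 0.029), and Dlx5 was the other member called. Alpl, the phosphatase of mineralising tissue, stood at 71.1, 69, 50.2 and 66.7 CPM in digit 1, against 104, 114, 91.8 and 86.6 CPM in digit 2. It did not overlap (-0.62 ± 0.09, adjusted p = 0.00972) and was the only call among 15 genes of hypertrophic cartilage and mineralisation (median -0.1). Mmp9, a protease of osteoclasts, was at 5.62 to 14.7 CPM in digit 1, against 15.5 to 29.3 CPM in digit 2 (-1.10 ± 0.19, adjusted p = 0.0184) and the only call among 6 osteoclast genes (median -0.13). Ifitm5 and Alpl were called in 8 of 8 single omissions, Smpd3 in 4 (0.0227 to 0.0859), Sp7 in 2 (0.0155 to 0.136) and Mmp9 in 6 (0.0145 to 0.0662).

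In the cartilage matrix list 1 of 19 fell (median 0.02), Matn3, a matrilin (-0.84 ± 0.19, adjusted p = 0.048). In the tendon list 1 of 14 fell (median -0.18), Fmod, the proteoglycan fibromodulin (-0.37 ± 0.07, adjusted p = 0.0281). In the joint list 1 of 17 rose (median 0.01), Barx1, a homeobox gene (1.07 ± 0.23, adjusted p = 0.0391). These calls were weak, with 0, 1 and 1 of 8 single omissions called (0.0503 to 0.159, 0.0305 to 0.139 and 0.0399 to 0.174), and Matn3 was not called with the replicate block (adjusted p = 0.0684). Thbs4, a thrombospondin of tendon, and Prg4, the lubricin of joint surfaces, rose in the forelimb (1.89 ± 0.31 and 2.05 ± 0.42) with no called limb difference (adjusted p = 0.461 and 0.093). The 22 cell cycle genes held no call and had a median of 0.01.

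Markers of other tissues that a dissected phalanx can hold were compared in the same way. The summed level of 17 skeletal muscle genes was 124, 54.4, 584 and 418 CPM in digit 1, against 80.6, 72.8, 278 and 238 CPM in digit 2. Of the 16 that passed the filter 1 rose (median 0.45), Ttn, the giant protein titin (1.11 ± 0.24, adjusted p = 0.0451, called in 2 of 8 omissions, 0.022 to 0.161, and at 0.0587 with the replicate block). The muscle sum was higher in digit 1 in 3 of 4 pairs. Within the forelimb 5 muscle genes rose, where 1.36% of all genes were higher. Among 12 macrophage genes 1 rose, Lyz2 (0.50 ± 0.11, called in 0 of 8 omissions, 0.0523 to 0.182), and among 4 adipocyte and smooth muscle genes 1 rose, Acta2, smooth muscle actin (0.60 ± 0.10, called in 6 of 8, 0.00972 to 0.0695). No call fell in the lists for endothelium (median 0), red blood cells (0.03), Schwann cells (0.19), melanocytes (0.44), immediate early genes (0.04) or mitochondrially encoded genes (-0.02). Their sums in digit 1 ran from 90.2% to 123% of digit 2 for endothelium and from 74.7% to 140% for erythroid genes. The Schwann cell and nerve sum was higher in digit 1 in each pair, at 117%, 107%, 135% and 118% of digit 2, and the mitochondrial sum was at 71.9%, 98.8%, 111% and 116%. The part of muscle or other tissues in the results for digit 1 was not tested.

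No gene passed edgeR's test for a digit effect that differed between E17 and E16 (0 genes, 0%), while DESeq2 called 39. In edgeR 605 of 14017 genes had an unadjusted p under 0.05, a smaller share than the 0.05 that chance alone gives. The 3 smallest p-values belonged to Rsc1a1, Gpx3 and Lce1a2, all uncalled. Gpx3, a secreted glutathione peroxidase, stood at 137, 85.2, 416 and 289 CPM in digit 1, against 173, 111, 215 and 181 CPM in digit 2. It was lower in digit 1 at E16 and higher at E17 in both limbs (difference 1.17 ± 0.17, adjusted p = 0.209). Lce1a2, of the cornified envelope, stood at 2.79, 0.953, 153 and 77.7 CPM in digit 1, against 43.9, 10.4, 223 and 158 CPM in digit 2 (difference 2.92 ± 0.44, adjusted p = 0.252). Rsc1a1 stood at 39.3, 36.1, 33 and 38.5 CPM in digit 1, against 0.921, 0.0533, 28 and 35.1 CPM in digit 2. Its digit 1 libraries were level, and the E16 libraries of digit 2 alone were low (difference -6.11 ± 0.76, adjusted p = 0.0859). In RefSeq (GRCm38.p6) this gene lies within Ddi2, and how reads of overlapping genes were counted is not given in the sources used here, so its values are uncertain.

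Whether the digit difference was particular to the distal phalanx was tested against the proximal phalanges, in a fit of 16 libraries (8 distal and 8 proximal). The effect differed for 103 of 14716 genes (0.7%), 55 higher (0.374%) and 48 lower (0.326%) distally, and in proximal phalanges 140 (0.951%) differed between the digits, 81 higher (0.55%) and 59 lower (0.401%) in digit 1. Hoxc13, Msx1 and Msx2 went opposite ways in distal and proximal phalanges. Hoxc13 had medians of 93.4 CPM in digit 1 and 187 CPM in digit 2 in distal phalanges, and of 12.7 and 7.42 CPM in digit 1 and digit 2 in proximal ones. It was thus lower in digit 1 distally and higher in digit 1 proximally, where it was called (0.91 ± 0.14, adjusted p = 0.0109), and the effects differed by -1.93 ± 0.20 (adjusted p = 0.0038). Msx1 and Msx2 had the same pattern, with differences of -1.23 ± 0.14 and -1.37 ± 0.18 (adjusted p = 0.0038 and 0.00725) and proximal effects of 0.64 ± 0.10 and 0.79 ± 0.13. In the digit tip and nail patterning list 6 members were called lower and 1 higher in this difference, among them Foxn1 (-1.13 ± 0.16, with a proximal effect of 0.23 ± 0.11 that was not called) and Rspo4 (-4.21 ± 0.73). Of the nail and hard keratins Krt35 (-1.76 ± 0.33) and Krtap3-2 (-4.56 ± 0.83) were called. Gpa33, a cell surface glycoprotein first described in intestinal epithelium, was at -3.32 ± 0.39 (proximal effect 2.86 ± 0.30), and Tfap2b, a factor of ectoderm and limb mesenchyme, at -0.80 ± 0.11. In proximal phalanges Krt84 and Rspo4 were low, with medians of 4.83 and 1.76 CPM in digit 1, against 0.587 and 0.205 CPM in digit 2. Krt85 was near level there, at 0.4 and 0.389 CPM. Only digit 2 has a middle phalanx between its distal and proximal ones. The part of distance from the tip in these differences was not tested.

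Genes higher in digit 1 distally relative to proximally included Hand2 (2.00 ± 0.35, adjusted p = 0.0226), Irx5 (1.54 ± 0.24, adjusted p = 0.0122), Pcdh10 (1.65 ± 0.24, adjusted p = 0.011) and Wnt10b (1.20 ± 0.17, adjusted p = 0.011). The mast cell genes Cpa3, Tpsb2 and Cma1, the last a chymase, differed by 2.33 ± 0.26, 2.23 ± 0.29 and 2.04 ± 0.24. Cpa3 had medians of 32.6 and 13.3 CPM in distal digit 1 and digit 2, and of 101 and 210 CPM in proximal digit 1 and digit 2. HoxD genes showed no called difference: Hoxd12 had a median of 3.3 CPM in digit 1 and 27.3 CPM in digit 2 distally, and of 3.58 CPM in digit 1 and 79.5 CPM in digit 2 proximally (difference 1.51 ± 0.48, adjusted p = 0.197). Hoxd11 and Hoxd10 were also lower in proximal digit 1, at -4.27 ± 0.29 and -4.25 ± 0.28. The differences of Hoxd9 and Hoxd10 lay just over the threshold, at 1.88 ± 0.40 and 1.59 ± 0.36 (adjusted p = 0.0541 and 0.0669). Hoxd9 was called lower in proximal digit 1 (-1.64 ± 0.28, adjusted p = 0.0182) and was not called distally. The differences named for Hoxc13, Msx1, Msx2, Gpa33, Tfap2b, Pcdh10, Wnt10b, Cpa3, Tpsb2 and Cma1 were called in 16 of 16 single omissions. The count of 103 was 29 without the E16 forelimb proximal library of digit 2, 39 without the E17 one, and 41, 44, 54 and 37 without the forelimb distal libraries in the order digit 1 E16, digit 1 E17, digit 2 E16 and digit 2 E17. Without the E17 forelimb proximal library of digit 1 it was 67, and with the 8 matched sets as a replicate block 64.

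**Figure D5:**
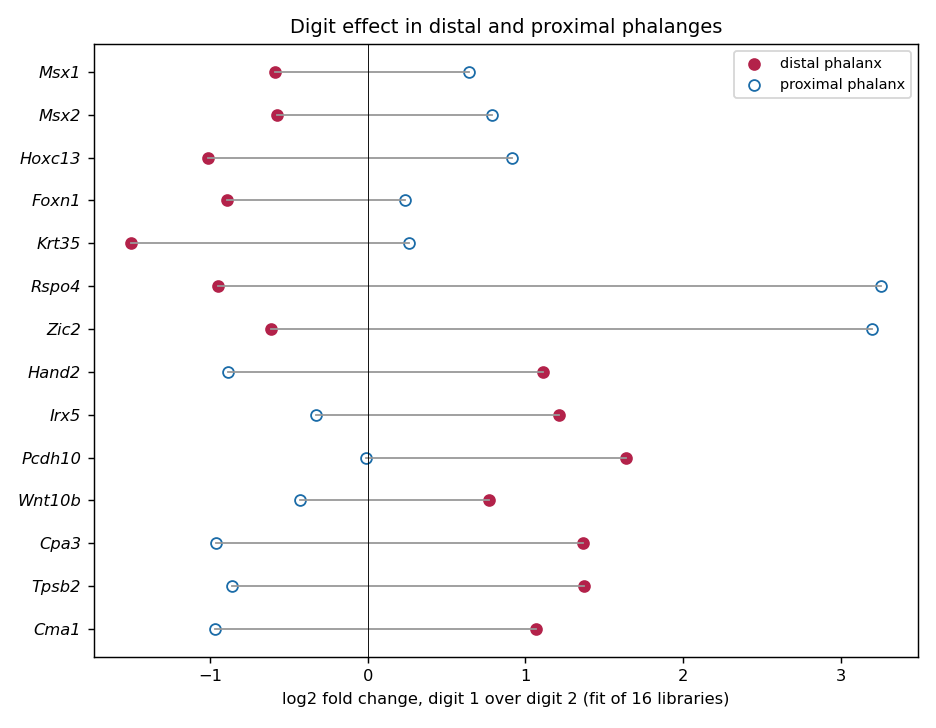
Log2 fold change of digit 1 over digit 2 in distal (filled) and proximal (open) phalanges, from the fit of 16 libraries, for 14 genes whose effects were called different. Msx1, Msx2 and Hoxc13 lie below 0 distally and above 0 proximally, and the mast cell genes Cpa3, Tpsb2 and Cma1 lie the other way.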

How the data were processed

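Messenger RNA was sequenced from pooled phalanges of mouse embryos, and the deposited tables give whole-number counts for each gene symbol, with a table for each stage. The submitters' processing notes name the genome build GRCm39, HISAT2 2.2.1 and StringTie 2.1.7, and the counting step, annotation and filters are not given in the sources used here. Per the labels' protocols the library kit carries no strand marking, so antisense genes cannot be told apart from their partners.

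The tables were joined by symbol (23697 genes, 98.93% to 99.35% of each distal library). Rows without a symbol were left out (0.000494% of the total at E16, 0.00132% at E17). Counts of the 8 distal libraries were fitted with edgeR 4.0.16 in R 4.3.3, by quasi-likelihood tests with TMM factors and terms for stage, limb and digit (4 residual degrees of freedom), for genes that reached 1 CPM in at least 4 of them. Limb and stage differences came from interaction fits with 3 residual degrees of freedom, and the digit effects within a limb from the first of these, an addition made after the data were seen. The distal-proximal difference used 16 libraries. P-values were two-sided, adjusted by Benjamini-Hochberg over all tested genes, with a threshold of 0.05. The biological coefficient of variation was 15.7%. The standard error is the absolute log2 fold change divided by the root of F. CPM values carry the TMM factors and, for distal and proximal levels set side by side, those of the 16-library fit. Scripts were tested on simulated data.

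Matched libraries share stage and limb by their labels, so the numbers pair them. After removing the digit means their deviations correlated at 0.562 to 0.756. Stage and limb effects remain in these deviations, so the correlation cannot show pairing beyond stage and limb. The fit with 4 pairs as a replicate block called 361 genes. Alternatives were RLE factors, DESeq2 1.42.0, other filters, all 20 libraries, single stages or limbs, and single omissions; those of list genes beyond the named ones, and the keratin counts in single-limb fits, were added after the data were seen.

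Named genes were every HoxD gene, called members of the lists (at most the 4 with the smallest p outside the patterning, limb identity and Iroquois lists), the 10 highest and 10 lowest called fold changes alike in 4 of 4 pairs at a mean of 5 CPM or more, and the 5 smallest p-values of each sign per interaction; 1 gene chosen by this rule is not reported here. Other members of a list are named with their values and were chosen after these were seen. The comparison and the gene lists were chosen with earlier results of these data known.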

Additional observations from a re-analysis of the deposited data

Results flagged for a closer look

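The digit effect of 15 of the 78 named genes differed between the limbs by the interaction test. For hindlimb minus forelimb on the log2 scale the difference was 7.27 for Krt86, 6.22 for Krt87, 5.45 for Krt85, 3.83 for Krtap3-3, 2.36 for Krtap3-2 and 1.26 for Krt35, all keratins or keratin-associated proteins. It was 3.94 for Sprr2b and 2.60 for Sprr2a1, proteins of the cornified envelope, 1.33 for Hoxd13 and 0.85 for Hoxc13. For Klk15, a kallikrein-related protease, the fitted value of 13.12 depends on the prior count, since both forelimb digit 1 libraries had 0 counts, against 9.56 and 43.7 CPM in forelimb digit 2. The value for Krt86 also rests on near-zero counts, at 0 and 0.109 CPM in forelimb digit 1. The difference was negative, with the larger digit 1 excess in the forelimb, for Lypd1 (-1.80), Dlk1 (-1.63), Socs2 (-1.42) and Penk (-1.02).

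In 11 of 156 groups of 4 libraries, 1 library lay far from the other 3. For 4 replicates of one condition chance alone gives about 1 in 20. The 4 libraries here differ in stage and limb, and many genes were chosen for their effects, so that rate does not apply to this count. The E17 hindlimb library of digit 1 was the high one for Krtap3-3 (69.5 CPM), Krt87 (90.3 CPM), Sprr2b (21.9 CPM), Klk15 (4.85 CPM), Krt86 (1.35 CPM) and Krtap6-5 (0.129 CPM). The E17 forelimb library of digit 2 was the high one for Krt86 (142 CPM) and Krtap6-5 (85.3 CPM). In digit 1 the E16 forelimb library was highest for Hoxd11 (3.77 CPM) and Hoxd10 (1.83 CPM), and the E17 forelimb library for Ifitm5 (1.75 CPM).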

How the results depend on the processing

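The digit comparison called 369 genes with RLE factors, 335 with no filter and 329 with a filter at 5 CPM, against 373. With a replicate block of the 4 matched sets it called 361. Some small list counts also fell under the block, as the calls of Bmp4, Dkk1, Matn3 and Ttn ended. DESeq2 called 852, the fit of all 20 libraries 222 and E17 alone 38, and single omissions gave 109 to 382. The limb difference was 59 genes, 127 with DESeq2 and 30 to 66 over omissions. The stage difference was 0 genes, 39 with DESeq2, 1 at the 5 CPM filter and 0 to 17 over omissions. The distal minus proximal difference was 103 genes, 489 with DESeq2, 64 with the replicate block and 29 to 131 over omissions. Within the forelimb it was 458, 785 with DESeq2 and 151 to 585, and within the hindlimb 28, 210 with DESeq2, 55 with no filter, 16 at the 5 CPM filter and 4 to 121.

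Of the 78 named genes, 78 kept direction and side of the threshold with RLE factors, 73 with DESeq2, 71 with the replicate block and 22 at E17 alone. Under the block the calls of Dkk1, Irx6, Prokr2, Matn3, Bmp4 and Ttn ended and Gpa33 became called, the other named calls being kept. Of 82 called genes of the lists and gene families, 72 kept their call under it. Directions turned for uncalled effects: Hoxd13, at -0.38 to 0.024 over omissions (0.024 without the E16 forelimb of digit 1, 0.015 without that of digit 2) and 0.48 in the hindlimb alone; Hoxd9, at -0.012 to 0.45 over omissions (lowest without the E16 forelimb of digit 2) and -0.16 at E17 alone; Gpx3 to -0.36 at E16 alone; and, in the hindlimb alone, Penk to -0.18 and Socs2 to -0.20. The cause was not tested. Each combination of stage, limb and digit was 1 library, so spread between litters was not measured.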

Other observations

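Genes of the imprinted Dlk1-Dio3 region were higher in digit 1 in each pair, a list chosen after its values were seen. They were 7 measured genes (median 0.90), and 4 passed edgeR's test, Dio3 (1.73 ± 0.22), Begain (0.97 ± 0.18), Rtl1 (0.90 ± 0.20) and Rian (0.71 ± 0.12). Of all genes, 1.07% were called higher. Over the single omissions Begain was called in 2, Rtl1 in 0 and Rian in 6 of 8 (0.0222 to 0.0829, 0.0519 to 0.186 and 0.0167 to 0.0796). Rian, a maternally expressed noncoding RNA, stood at 60.8, 30.6, 103 and 80.5 CPM in digit 1, against 30.6, 22.2, 59.1 and 55.1 CPM in digit 2. Meg3, another noncoding RNA of the region, was at 3.89 to 12.7 CPM in digit 1, against 2.66 to 7.85 CPM in digit 2 (0.69 ± 0.20, adjusted p = 0.124).

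Mast cell genes, also chosen after the values were seen, were higher in digit 1 for 5 of 8 measured members in 4 of 4 pairs (median 0.93). Cpa3, Tpsb2, Cma1 (1.07 ± 0.15) and Hdc, which makes histamine (0.78 ± 0.15, called in 2 of 8 omissions, 0.0227 to 0.0826), passed the test. Kit (0.13 ± 0.10) and Gata2 (-0.02 ± 0.15), which other cells also express, did not.

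Among 3 measured metallothioneins, small metal-binding proteins, Mt1 and Mt2 were called lower in digit 1, as were 1.59% of all genes, and Mt4 was not called. Mt1 stood at 14.1, 26.1, 34.9 and 48.2 CPM in digit 1, against 57.1, 55.7, 88.6 and 106 CPM in digit 2 (-1.39 ± 0.13, adjusted p = 0.00264), and every digit 1 library lay below every digit 2 library. Mt2 was at 14.2 to 67.6 CPM in digit 1, against 48.7 to 151 CPM in digit 2 (-1.52 ± 0.21, adjusted p = 0.00995). Mt4, a member of stratified epithelia, was at 0.395 and 1.76 CPM in forelimb digit 1, against 16.5 and 64.3 CPM in forelimb digit 2, and at 2.21 and 19.1 CPM in hindlimb digit 1, against 2.01 and 25.3 CPM in hindlimb digit 2, with a limb difference of 5.22 ± 0.51 (adjusted p = 0.00139).

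Ambn and Enam, known as enamel matrix proteins, were measured in the distal phalanges and had limb differences of 1.79 and 1.89 on the log2 scale (adjusted p = 0.025 for both). Of all genes, 0.357% were called in this direction. Ambn and Enam are in none of the gene lists and were chosen after the values were seen.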
